A study of Mus musculus with 9 samples.

Results

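Adnp2, Synj2bp, Usp15, Tecpr1, Spata13, Smg5, Poldip3 and Sort1 are 8 genes whose transcripts have been reported as mis-spliced in mouse cells without TDP-43, the RNA-binding protein that Tardbp encodes. They were taken by name from the gene list of the deposited matrices, where all 8 were found among 32285 genes. The data are single-cell 3′ RNA-seq libraries of whole testis from 9 male mice at PND24, an age at which spermatogonia (SG), spermatocytes (SC) and round spermatids (RS) are present together. The mice were 4 Control, 2 NELF-B cKO and 3 TDP-43 cKO animals, labelled C57BL/6 and, by the study's methods, backcrossed to C57BL/6 J. Each cKO mouse carried 1 floxed and 1 null allele of Nelfb (the floxed exons 1 to 4) or of Tardbp (floxed exon 3), together with the Stra8-iCre transgene, which is active in germ cells from SG onward. According to the study, excision by Stra8-iCre begins in SG of young pups and reaches full penetrance only later. All cells of a cKO mouse, Sertoli, Leydig and interstitial cells included, therefore hold at most 1 working allele, and germ cells lose the other as they develop. Controls were described as littermates or non-littermates, and which alleles each of them carried is not given by the labels or methods. The file name of 1 control carries the word het, and all file names carry codes that may mark lines or litters. Their meaning was not resolved, and whether the controls came from 1 line cannot be told.

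TDP-43 binds UG-rich RNA and keeps the splicing machinery away from weak splice sites in nearby introns. When it is lost, stretches of intron known as cryptic exons can enter the mRNA, where they often bring a premature stop codon and decay of the transcript, while some normal cassette exons change their inclusion. In the testis TDP-43 is expressed in germ cells and in Sertoli cells. The 3′ libraries count the end of a transcript once per molecule through a unique molecular identifier (UMI). They measure how much of each gene's RNA is there and do not show which exons it holds, so no splicing event was measured for any of the 8 genes.

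The genes differ in where the annotation of the mm10 genome (GENCODE M21) places TG repeats and skipped exons, the features by which TDP-43 targets are usually described. The gene positions were chr12:81497941-81532911 on the minus strand for Synj2bp and chr10:123105006-123196995 on the minus strand for Usp15. Tecpr1 lies at chr5:144194442-144223615 on the minus strand, Spata13 at chr14:60634001-60764556 on the plus strand and Smg5 at chr3:88336260-88362338 on the plus strand. Poldip3 spans chr15:83125976-83149384 on the minus strand and Sort1 chr3:108284082-108361511 on the plus strand. An uninterrupted run of at least 6 TG units, counted in the sense strand of the annotated transcripts, was found in 4 of the 8 genes and in 10.95% of 21951 protein-coding genes. This is a description of annotated transcripts only, since most intronic sequence was not available to the search. The 4 genes with a run have 9 to 12 annotated transcripts and the other 4 have 1 to 6. The share over protein-coding genes was not matched for this number. Usp15 and Spata13 had the longest runs, with 24 and 22 units in the 3′ UTR of Usp15-211 and Spata13-207. In Tecpr1 and Smg5 the run lay in a stretch that is intronic in the protein-coding transcripts and is covered by a non-coding one. The other 4 genes had at most 5 units in a row. The runs of Tecpr1 (17 units) and Smg5 (7 units) are shown with their surroundings because TG repeats of this kind are what TDP-43 binds, with the repeat in capitals, from chr5:144218458-144218517 on the minus strand and chr3:88340742-88340801 on the plus strand.
Tecpr1 TG repeat: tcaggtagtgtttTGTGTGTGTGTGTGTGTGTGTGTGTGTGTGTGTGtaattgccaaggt
Smg5 TG repeat: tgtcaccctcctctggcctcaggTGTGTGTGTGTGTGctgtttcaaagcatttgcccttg

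For 3 of the genes the annotation is shown by a coding exon that 1 annotated transcript holds and another skips. Exon 18 of Sort1-203, which Sort1-201 skips, has 99 bases at chr3:108355472-108355570 on the plus strand. Exon 3 of Poldip3-201, which Poldip3-202 skips, has 87 bases at chr15:83137468-83137554 on the minus strand. Both lengths are multiples of 3, so the reading frame is kept without them. Exon 2 of Synj2bp-203, which Synj2bp-204 skips, has 137 bases at chr12:81510829-81510965 on the minus strand, a length that leaves a remainder of 2 and shifts the frame. It is printed because Synj2bp had the largest fold change among the 8 genes in early meiotic cells, and it is not a reported cryptic exon. No letters are in capitals here because the whole exon is the item.
Sort1 exon 18: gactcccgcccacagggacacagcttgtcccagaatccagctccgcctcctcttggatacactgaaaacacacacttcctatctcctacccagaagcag
Poldip3 exon 3: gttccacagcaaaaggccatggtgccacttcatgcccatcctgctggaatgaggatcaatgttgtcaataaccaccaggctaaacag
Synj2bp exon 2: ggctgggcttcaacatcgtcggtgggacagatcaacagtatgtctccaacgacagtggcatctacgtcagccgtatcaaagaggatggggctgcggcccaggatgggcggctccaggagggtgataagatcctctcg

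The libraries held 119203347 to 159407373 UMIs, and 2982 to 8457 barcodes per mouse passed the filters, 45132 in all. They fell into 24 clusters, of which 19 could be named from marker genes. Clusters 1 and 19, with 98.8 and 97.1% of their barcodes from a single mouse, stayed unnamed and were used nowhere. The study dropped cKO germ cells in which the targeted gene had a UMI, and the same was done here. It took out 3147 cells from TDP-43 cKO and 235 from NELF-B cKO mice and left 25810. After this step each mouse had 242 to 650 SG and 240 to 949 early SC, meaning cells of the preleptotene-like (pL), leptotene-like (L) and zygotene-like (Z) clusters. The early SC clusters 7 (pL-like), 12 (L-like) and 5 (Z-like) were compared only together or by cluster number, because the leading genes of cluster 5 include the pL and L markers Ccnb3 and Rad51ap2. Libraries shared 1 to 24 barcode sequences per pair, 260 sequences in all. Levels are given as CPM, the UMIs a gene had per 1000000 UMIs of that mouse and cell type, and fewer cells of a kind within a sum cannot be told apart from less RNA per cell. The 3′ counts of Tardbp come from outside the deleted exon and do not test the deletion itself. Before any cell was left out, Tardbp in early SC stood at 45.3, 82.0 and 89.5 CPM in the TDP-43 cKO mice and at 185 to 212 CPM in the controls. A Tardbp UMI was found in 48.3 to 52.0% of TDP-43 cKO early SC and in 75.4 to 80.1% of control early SC. Nelfb in early SC stood at 56.5 to 65.0 CPM in the controls and at 2.17 and 5.14 CPM in the NELF-B cKO.

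In Control mice the 8 genes did not all peak in the same of the 11 cell types with at least 20 cells in every control. Synj2bp, whose product is a PDZ protein of the outer mitochondrial membrane, was highest in RS at 185 ± 8.22 CPM (SD, n = 4) and lowest in immune cells at 36.2 ± 5.81 CPM. Along the germ line it went from 47.8 ± 1.93 CPM in SG to 75.2 ± 9.34 CPM in cluster 7, 164 ± 9.66 CPM in cluster 12 and 91.7 ± 1.56 CPM in cluster 5. The 4 control mice did not overlap between any of these neighbours. Usp15, a deubiquitinase, was also highest in RS at 247 ± 24.1 CPM, with SG at 67.7 ± 7.05 CPM among the lowest types. From RS down to immune cells, neighbours in the order of Usp15 levels overlapped between mice.

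Tecpr1, which binds the ATG5–ATG12 conjugate and takes part in autophagosome maturation, was highest in somatic cells. Its level was 81.9 ± 13.5 CPM in Leydig cells and 33.8 ± 9.82 CPM in Sertoli cells, and no germ cell type exceeded the 21.4 ± 2.23 CPM of pachytene SC. Sort1, the sorting receptor sortilin that carries progranulin to lysosomes, was highest in Sertoli cells at 77.2 ± 14.0 CPM and RS at 64.0 ± 5.06 CPM, which overlapped. It stood at 3.83 ± 1.18 CPM in Leydig cells. Among the 11 types, Spata13, an exchange factor for the small GTPases Rac1 and Cdc42, was highest in Sertoli, interstitial and SG cells at 24.2 ± 4.18, 23.1 ± 3.28 and 21.7 ± 3.82 CPM, which overlapped with each other. In cluster 5 it stood at 1.99 ± 0.56 CPM. Endothelial cells, with 10 to 25 cells per control, were outside this ranking and held more Spata13, at 105 ± 33.7 CPM. Myoid cells, with 10 to 31 per control, were outside it too. Their mean was also above that of Sertoli cells, on 3 to 13 UMIs per control.

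Poldip3, a nuclear protein that links processed mRNA to translation, was highest in SG at 91.3 ± 6.28 CPM, which overlapped with cluster 7. Adnp2 (chr18:80126311-80151482, minus strand), a homeobox and zinc finger protein, and Smg5, a factor of nonsense-mediated decay (NMD), were highest in cluster 7 at 35.0 ± 6.23 and 77.0 ± 13.3 CPM. In that cluster Adnp2 overlapped with SG and Smg5 with diplotene SC. These levels compare cell types for 1 gene and not genes with each other, because a 3′ count has no length scale.

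**Figure D1:**
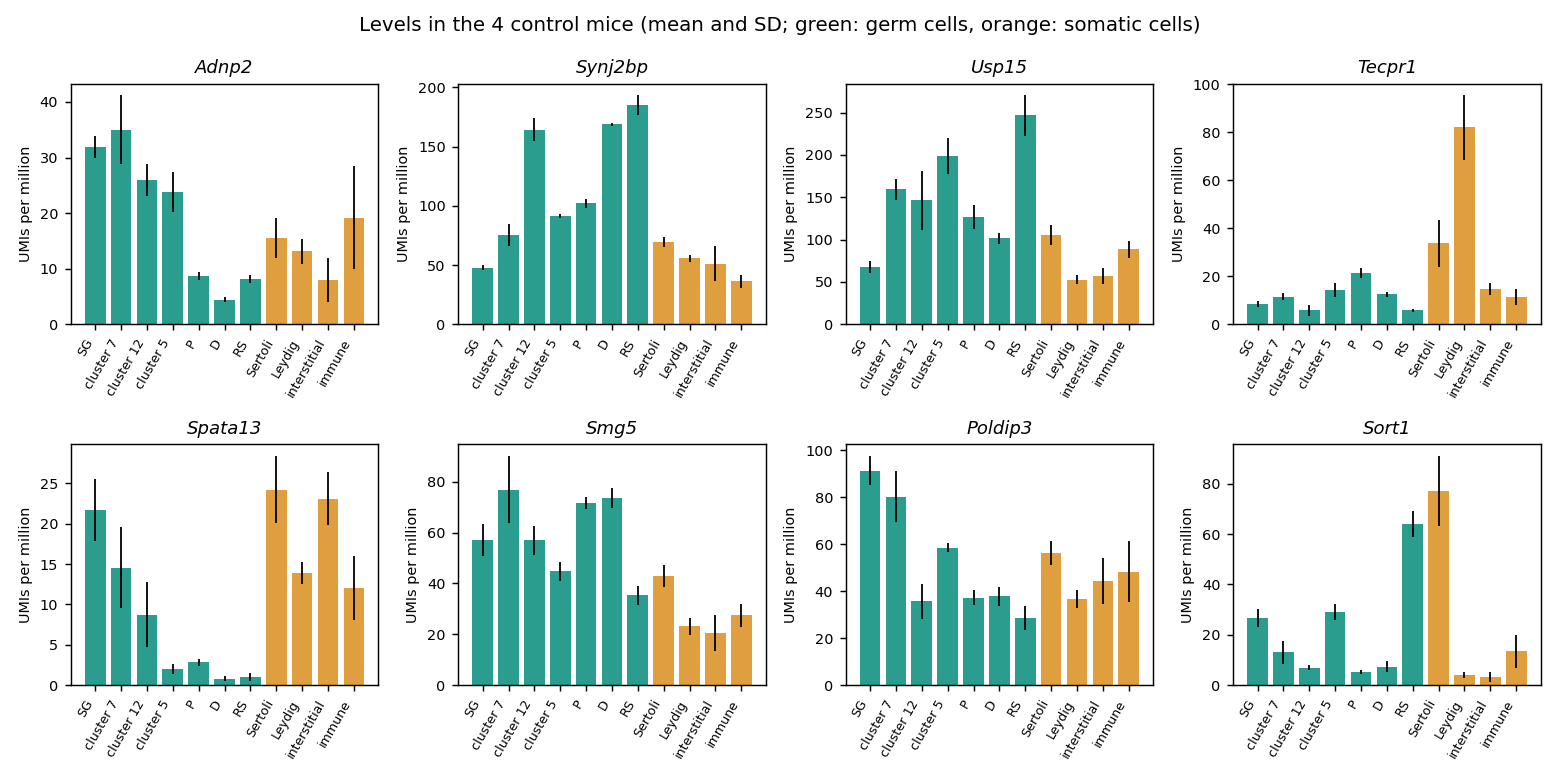
Mean level (CPM, linear axis from 0) of each of the 8 genes in 7 germ cell types or clusters (green) and 4 somatic cell types (orange) of the 4 control mice; P and D are pachytene and diplotene SC, and error bars are the SD. Synj2bp and Usp15 peak in RS, Tecpr1 in Leydig cells at 81.9, Sort1 in Sertoli cells at 77.2, Poldip3 in SG at 91.3.

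Over the 11 cell types of the control mice, the genes whose mean log2(CPM + 1) followed each member most closely were picked from 11373 genes. Pearson's r is given as a description, since the cell types come from the same 4 mice. For Synj2bp they were Alkbh3 (r = 0.960) and Med7 (0.938), and for Usp15 Ndfip2 (0.930) and Ccnyl1 (0.923). Tecpr1 was followed by Soat1 (0.945) and Atp5h (0.931), Sort1 by Akirin1 (0.916), and Spata13 by A630089N07Rik (0.980) and Arhgap1 (0.972). Adnp2 was followed by Katna1 (0.973) and Pogz (0.969), Smg5 by Zfp943 (0.958) and Uchl5 (0.957), and Poldip3 by Tnpo1 (0.933) and Mcm3ap (0.926).

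To ask whether the amount of these RNAs changes when germ cells lose TDP-43, the summed UMIs of each mouse were compared in early SC with edgeR's quasi-likelihood test and Benjamini-Hochberg adjustment over 15824 genes. Of the 8 genes, all tested, Synj2bp rose and Tecpr1 fell at an adjusted p under 0.05, and 6 did not pass. In this comparison 24.6% of all genes tested passed, so 2 of 8 is near the share of all genes. Synj2bp stood at 93.1, 102, 100.1 and 95.8 CPM in the 4 controls, at 103 and 93.6 CPM in the 2 NELF-B cKO mice and at 261, 172 and 173 CPM in the 3 TDP-43 cKO mice. Every TDP-43 cKO mouse was above every other mouse, and TDP-43 cKO 1 was well above the other two. The log2 fold change was 1.07 ± 0.16 (SE), with an edgeR adjusted p of 0.00222. It kept its side of the threshold when any 1 of the 9 mice was left out, with log2 fold changes of 0.84 to 1.19.

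Tecpr1 was sparsely counted in early SC, with 19 to 147 UMIs per mouse. Its levels were 12.5, 14.3, 10.6 and 11.7 CPM in the controls, 6.56 and 10.2 CPM in the NELF-B cKO mice and 4.71, 5.93 and 6.93 CPM in the TDP-43 cKO mice. All mice of both cKO lay below all controls, and NELF-B cKO 1 lay within the TDP-43 cKO range. The log2 fold change against Control was -1.04 ± 0.24 with an edgeR adjusted p of 0.0150. Without TDP-43 cKO 1 the adjusted p was 0.0548, and with no cell left out for a Tardbp UMI it was 0.134 at a log2 fold change of -0.63.

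Adnp2 and Spata13 were higher in every TDP-43 cKO mouse than in every control without passing the test. Adnp2 in early SC was at 25.8, 28.6, 24.9 and 29.0 CPM in the controls and 35.5, 33.5 and 31.1 CPM in the TDP-43 cKO mice, where its log2 fold change was 0.32 ± 0.13 (edgeR adjusted p = 0.0886). Spata13 was at 4.34, 7.89, 6.84 and 5.75 CPM in the controls and 11.2, 8.99 and 9.29 CPM in the TDP-43 cKO mice, with 0.68 ± 0.28 as log2 fold change (edgeR adjusted p = 0.0975). Groups that do not overlap were common in this comparison, at 40.3% of all genes and 4 of the 8.

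Usp15 in early SC overlapped between the groups, at 151 to 190.4 CPM in the controls and 126, 158 and 161 CPM in the TDP-43 cKO mice, with a log2 fold change of -0.25 ± 0.12 (edgeR adjusted p = 0.15). Sort1 was at 19.4 to 22.5 CPM in the controls and at 10.2, 20.7 and 21.6 CPM in the TDP-43 cKO mice, so that only TDP-43 cKO 1 lay outside the control range. Poldip3 showed the same single low mouse, at 40.9 CPM against 71.6 and 59.7 CPM in the others and 56.2 to 66.8 CPM in the controls. For Smg5 too, TDP-43 cKO 1 at 42.4 CPM was below the controls, at 45.2 to 62.7 CPM, which held the other two mice at 56.4 and 57.6 CPM.

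**Figure D2:**
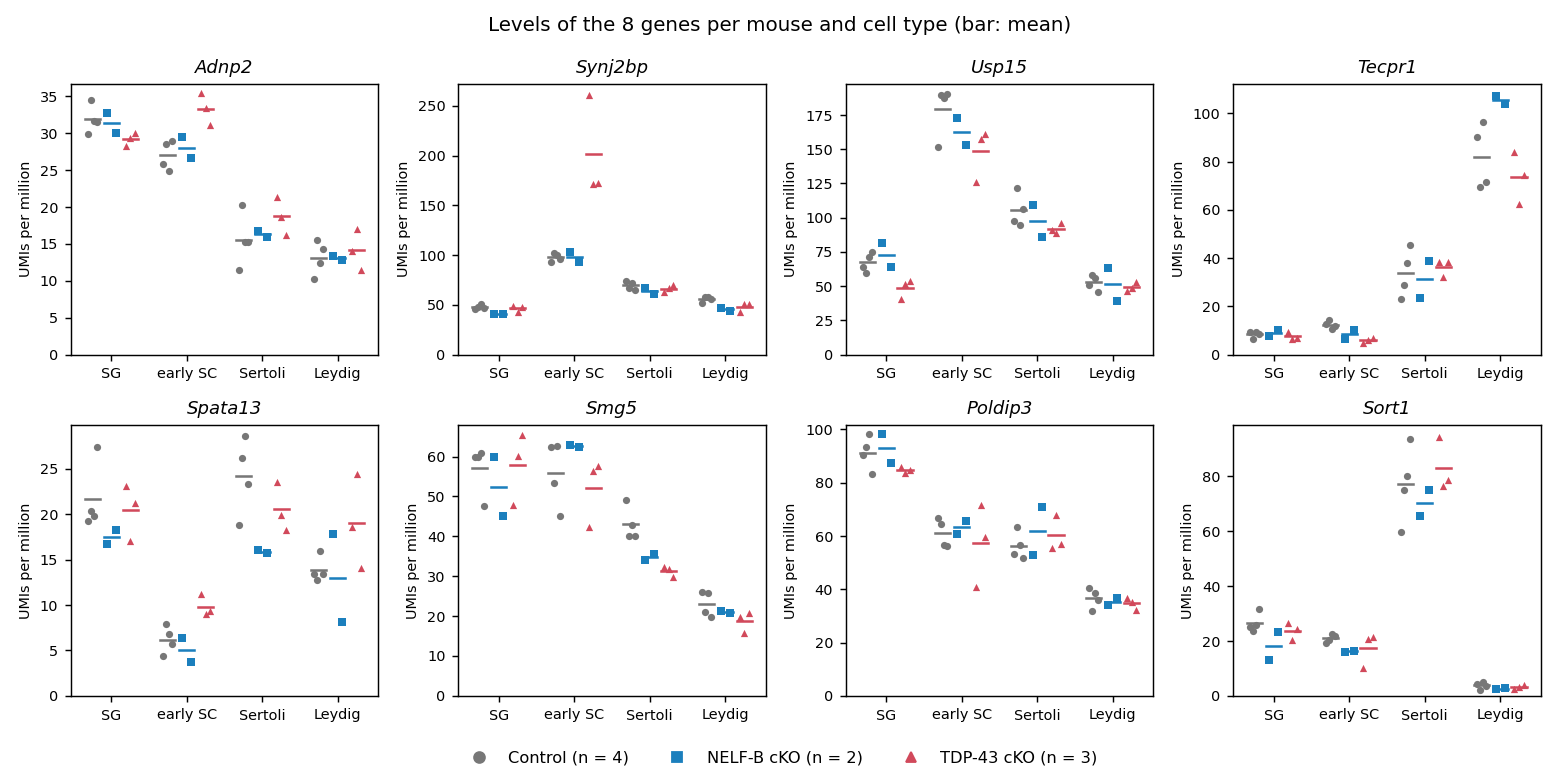
Level of each of the 8 genes (CPM, linear axis from 0) in SG, early SC, Sertoli and Leydig cells; each point is 1 mouse, bars are group means, and cKO germ cells in which the targeted gene had a UMI are not included. In early SC the 3 TDP-43 cKO mice sit between 172 and 261 for Synj2bp, above all other mice, and between 4.71 and 6.93 for Tecpr1, below all controls.

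The same test in SG, over 18161 genes, called none of the 8 genes, 1 of which had an unadjusted p under 0.05. It called 0.00551% of all genes, which is Tardbp alone, whose counts are 0 by construction, while 18.9% of genes had an unadjusted p under 0.05. When 1 mouse was left out, 1 to 1454 genes were called, none of them members. Synj2bp overlapped between the genotypes in SG, at 46.3, 48.1, 50.4 and 46.4 CPM in the controls and 49.3, 42.7 and 48.0 CPM in the TDP-43 cKO mice, with a log2 fold change of 0.041 ± 0.087 (edgeR adjusted p = 0.858). Usp15 was the 1 gene of the 8 with groups that did not overlap in SG, where 22.2% of all genes did not overlap. It stood at 64.3, 59.6, 71.6 and 75.3 CPM in the controls and at 40.6, 51.6 and 53.7 CPM in the TDP-43 cKO mice, and its log2 fold change was -0.40 ± 0.12 (edgeR adjusted p = 0.138). The NELF-B cKO mice were at 81.2 and 63.7 CPM, inside or above the control range.

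The difference between the 2 stages was tested directly, in a fit over the SG and early SC sums of all 9 mice with the mouse as a block. The change of Synj2bp in the TDP-43 cKO was larger in early SC than in SG by 1.08 ± 0.14 on the log2 scale (edgeR adjusted p = 0.00696). No other gene of the 8 was called, where 5.2% of 18719 genes were called. This contrast was added after the data were seen.

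Synj2bp was also compared within the 3 clusters of early SC. In cluster 7, pL-like, it stood at 65.0 to 86.3 CPM in the controls and 115 to 153 CPM in the TDP-43 cKO mice. In cluster 12, L-like, the ranges were 154 to 174 and 275 to 372 CPM, and in cluster 5, Z-like, 89.6 to 92.9 and 151 to 239 CPM. Every TDP-43 cKO mouse was above every control in all 3 clusters. Fitted alone, cluster 5 passed with a log2 fold change of 0.96 (edgeR adjusted p = 0.000337), while clusters 7 and 12 gave 0.85 and 0.99 with adjusted p of 0.0902 and 0.0506. The shares of all genes called in these single-cluster fits are not given here. In the SG clusters 3 and 9 the ranges were 39.0 to 43.4 against 43.3 to 43.7 CPM and 54.6 to 65.3 against 41.5 to 56.0 CPM.

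Tecpr1 passed in cluster 5 when that cluster was fitted alone, with no share of all genes given beside it, and differences between clusters were not tested. There it was at 10.6 to 17.4 CPM in the controls and 2.93 to 6.96 CPM in the TDP-43 cKO mice, which rest on 4, 6 and 10 UMIs, with a log2 fold change of -1.78 (edgeR adjusted p = 0.00273). In cluster 7 the ranges overlapped, at 10.2 to 12.99 and 5.92 to 11.3 CPM, and in cluster 12 they were 2.31 to 7.92 and 2.83 to 6.40 CPM. The log2 fold changes there were -0.33 and -0.16, with adjusted p of 0.595 and 0.919. Usp15 in cluster 7 was at 144 to 174 CPM in the controls and 112 to 142 CPM in the TDP-43 cKO mice, and in cluster 5 the groups overlapped at 170.0 to 220.3 and 180 to 193 CPM.

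**Figure D3:**
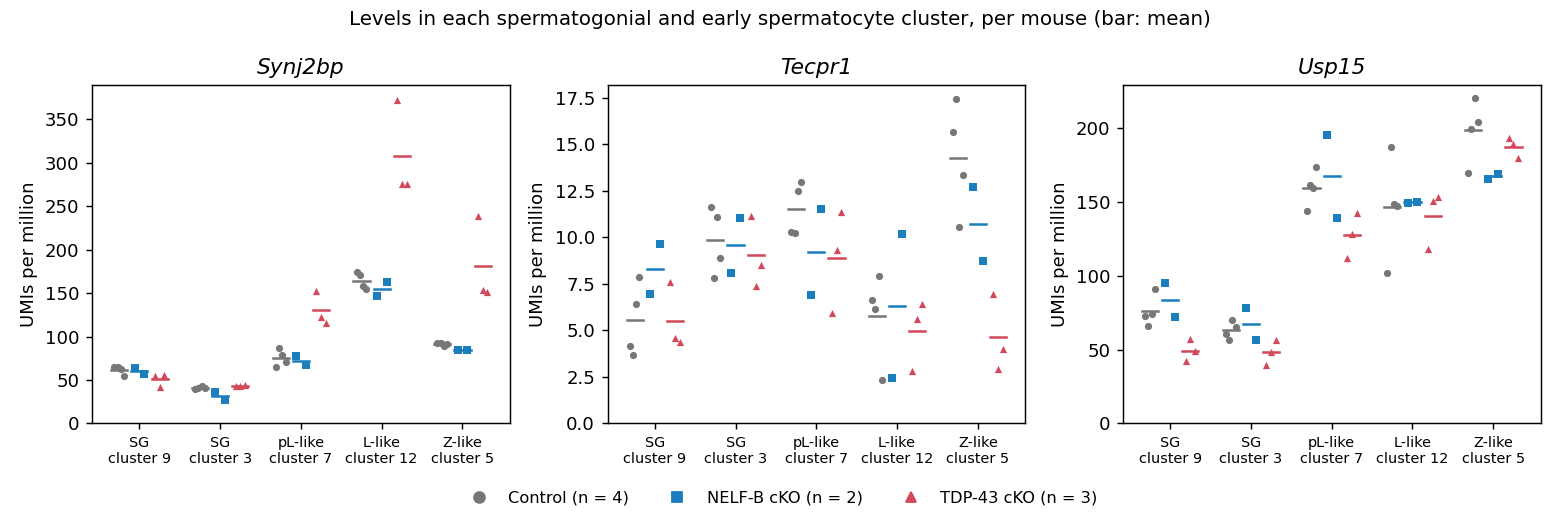
Level of Synj2bp, Tecpr1 and Usp15 (CPM, linear axes from 0) in each SG and early SC cluster, ordered by stage; each point is 1 mouse and bars are group means. Synj2bp is higher in all 3 TDP-43 cKO mice than in all controls in clusters 7, 12 and 5 and not in the SG clusters 3 and 9. Tecpr1 is lower in these mice than in all controls in cluster 5.

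Values of other cell types moved with these results. The summed level of 6 pachytene markers within early SC was 145 to 286 CPM in the TDP-43 cKO, 303 to 377 CPM in the NELF-B cKO and 585 to 760 CPM in the controls, with none of the 6 at 0 in any group. The 8 RS markers summed to 19.8 to 53.6 CPM in the TDP-43 cKO early SC and 59.2 to 193 CPM in the controls, and the 9 Sertoli markers to 176 to 239 and 95.6 to 203 CPM. Markers of earlier stages were higher in the TDP-43 cKO early SC, with the 4 pL markers at 1123 to 1404 against 639 to 839 CPM, the 5 L markers at 1337 to 1938 against 890 to 1098 CPM and the 8 SG markers at 320 to 395 against 209 to 278 CPM, none at 0. The 5 Z markers overlapped, at 4660 to 5848 and 4298 to 6283 CPM. In NELF-B cKO early SC the pL and SG markers, at 989 to 1279 and 373 to 463 CPM, also lay above the controls. The L markers there, at 1070 to 1077 CPM, overlapped them. Cluster 12 gave 43.9, 24.0 and 26.4% of the early SC UMIs of the TDP-43 cKO mice, 35.2 and 20.6% of those of the NELF-B cKO mice and 13.1 to 20.2% of those of the controls. In the controls that cluster had the highest Synj2bp and the lowest Tecpr1 of the 3. The part of this mix and of the markers in the changes of the 8 genes was not tested. In barcodes with at most 100 UMIs, which hold mainly RNA free of cells, Synj2bp was at 67.3 to 89.3 CPM in the TDP-43 cKO and 126 to 168 CPM in the controls, the opposite order to that in early SC.

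The leaving out of cells by their Tardbp UMI was 1-sided, so levels were also split by Tardbp UMI in every mouse, a split added after the data were seen. Among early SC with a Tardbp UMI, Synj2bp was at 91.9, 102, 97.1 and 95.0 CPM in the controls and 233, 141 and 141 CPM in the TDP-43 cKO mice. Among those without one, it was at 100.1, 103, 116 and 102 CPM in the controls and 261, 172 and 173 CPM in the TDP-43 cKO mice. Synj2bp was therefore above all controls in TDP-43 cKO early SC of both kinds. For Tecpr1, cells with a Tardbp UMI overlapped between the groups, at 9.78 to 14.7 CPM in the controls and 5.34, 9.96 and 11.4 CPM in the TDP-43 cKO mice. With such cells left out of the controls too, Synj2bp in early SC had a log2 fold change of 1.01 (edgeR adjusted p = 0.0174) and Tecpr1 of -0.68 (adjusted p = 0.320). Cells without a Tardbp UMI were shallower, with median UMIs of 6436 to 7476 against 9756 to 14404 in control early SC and 8789 to 14566 against 13300 to 20547 in the TDP-43 cKO.

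**Figure D4:**
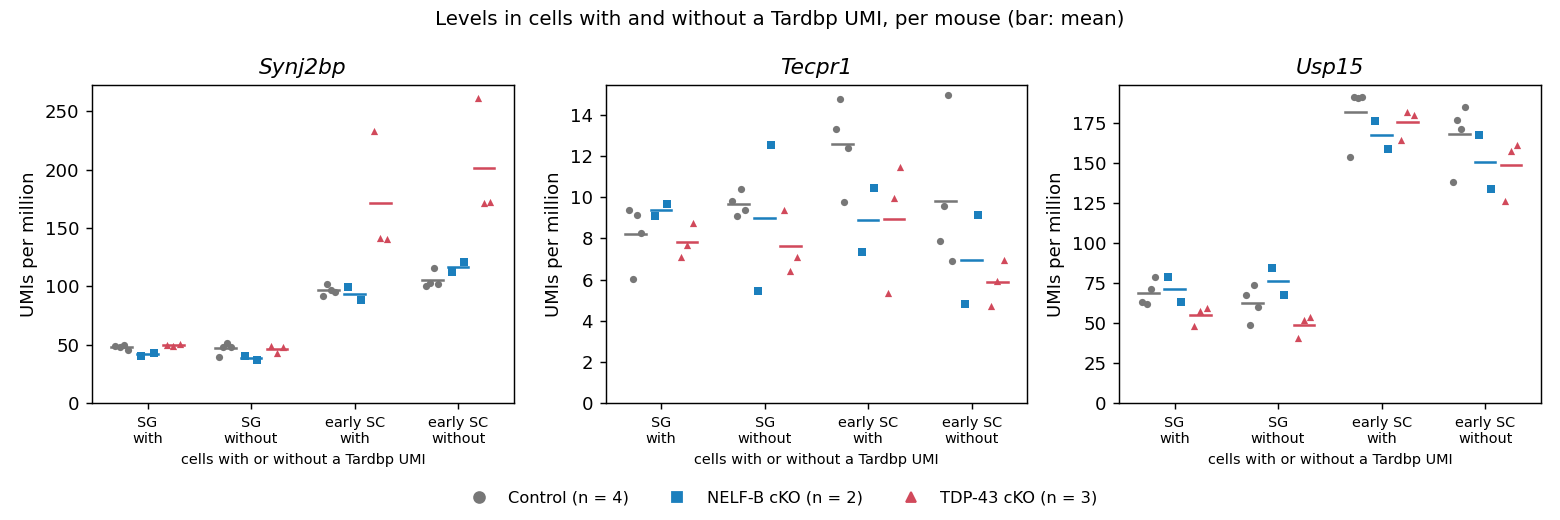
Level of Synj2bp, Tecpr1 and Usp15 (CPM, linear axes from 0) in SG and early SC with and without a Tardbp UMI, in every mouse; bars are group means. In early SC, Synj2bp is higher in the 3 TDP-43 cKO mice than in the controls among cells with a Tardbp UMI (141 to 233) and among cells without one (172 to 261).

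The study's own comparison took SG and early SC together, so the 8 genes were tested on these sums too. Of the 8, Synj2bp rose and Usp15 fell, with 16.1% of 19853 genes passing the same test. The groups did not overlap for 3 of the 8 genes, Synj2bp, Usp15 and Tecpr1, and for 37.3% of all genes. Synj2bp was at 71.3, 73.6, 74.3 and 77.7 CPM in the controls, 68.0 and 59.9 CPM in the NELF-B cKO mice and 119, 91.0 and 94.6 CPM in the TDP-43 cKO mice. Its log2 fold change in the TDP-43 cKO was 0.49 ± 0.11 (edgeR adjusted p = 0.0244). Usp15 was at 111, 121, 127 and 148 CPM in the controls, 121 and 95.8 CPM in the NELF-B cKO mice and 68.8, 91.4 and 94.0 CPM in the TDP-43 cKO mice, with a log2 fold change of -0.55 ± 0.14 (edgeR adjusted p = 0.0288).

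Both calls rest on sums whose stage mix differed. SG gave 36.5 to 53.1% of the UMIs in these sums in the controls, 56.6 to 64.0% in the NELF-B cKO and 62.5 to 67.1% in the TDP-43 cKO, and cluster 5 gave 23.9 to 41.8, 9.34 to 13.6 and 4.69 to 15.8%. Usp15 was lower in control SG than in control early SC, and its smaller differences in SG and in early SC alone did not pass. The part of the mix in the 2 calls was not tested. Synj2bp was also lower in control SG than in early SC, and cluster 12, where it was highest of these stages, gave 8.99 to 14.4% of the TDP-43 cKO and 6.51 to 9.70% of the control UMIs. With the cells clustered at resolution 1.2 in place of 0.8, the log2 fold change of Synj2bp on the joint sums was 0.20 (edgeR adjusted p = 0.165), while Usp15, Tecpr1 at -1.07 and Spata13 at 0.49 were called. At 1.2 the cluster named Z held 1115 cells with a median of 36733 UMIs, beside 10452 in cluster 5 at 0.8. Its leading genes include Gm21221, which also leads the pachytene cluster 8 at 0.8, so the cell set differed too. The share of all genes called at 1.2 is not given here. Without TDP-43 cKO 1, the adjusted p of Synj2bp was 0.0653 and that of Usp15 0.105, and without Control 3 or Control 4 neither gene passed. With control cells that had a Tardbp UMI left out too, neither passed, with log2 fold changes of 0.56 and -0.28 (edgeR adjusted p of 0.0534 and 0.328) and 1 of 18895 genes called.

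The other 6 genes did not pass on the joint sums. Tecpr1 had a log2 fold change of -0.54 ± 0.18 (edgeR adjusted p = 0.0730) and Spata13 of 0.37 ± 0.15 (adjusted p = 0.119). Adnp2 was at 0.092 ± 0.085, Poldip3 at 0.028 ± 0.081, Smg5 at 0.013 ± 0.13 and Sort1 at -0.085 ± 0.14, with edgeR adjusted p of 0.479, 0.836, 0.956 and 0.711. The median over the 8 genes was 0.021, beside 0.036 over all genes tested. The study asks for an adjusted p under 0.01 and a shrunken DESeq2 log2 change whose size is 1 or more. With these cut-offs put on the unshrunken edgeR values, which is not the same call, none of the 8 genes was called in either cKO, with 0.861% of all genes called in the TDP-43 cKO and 0.00504% in the NELF-B cKO.

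Somatic cells of the cKO mice carried the null allele as well, and Stra8-iCre is a germ cell driver. Tardbp in Sertoli cells was at 81.0, 79.2 and 73.9 CPM in the TDP-43 cKO and 96.8 to 116 CPM in the controls, a log2 fold change of -0.44 ± 0.11 (edgeR adjusted p = 0.0523). Nelfb in Sertoli cells was at 5.98 and 10.5 CPM in the NELF-B cKO and 19.7 to 29.8 CPM in the controls, a log2 fold change of -1.5 ± 0.28 (edgeR adjusted p = 0.264). In Leydig cells that of Nelfb was -1.19 ± 0.22 (adjusted p = 0.359). Whether floxed alleles were cut in somatic cells was not tested. The Sertoli sums pooled clusters 13, 15 and 20, with median UMIs of 2132, 35327 and 4742. They held 1219405 to 4203945 UMIs in the controls and 6969117 to 18609545 in the TDP-43 cKO. The part of depth and cell mix in the Sertoli values was not tested. None of the 8 genes was called in Sertoli cells of the TDP-43 cKO, where 2.27% of 15356 genes were called and 1 of the 8 had an unadjusted p under 0.05. That gene was Smg5, at 49.2, 40.0, 42.9 and 40.1 CPM in the controls, 34.0 and 35.7 CPM in the NELF-B cKO mice and 32.3, 31.7 and 29.9 CPM in the TDP-43 cKO mice. All cKO mice of both kinds lay below all controls. In Sertoli cells 39.9% of all genes did not overlap between TDP-43 cKO and controls, and 20.2% between NELF-B cKO and controls. Of the 8 genes, 1 and 2 did not. The log2 fold change of Smg5 was -0.44 ± 0.13 in the TDP-43 cKO (edgeR adjusted p = 0.0665) and -0.28 ± 0.15 in the NELF-B cKO (adjusted p = 0.452). DESeq2, run as an alternative, called Smg5 in TDP-43 cKO Sertoli cells, and the share of all genes it called there is not given here.

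The pachytene markers within the Sertoli sums were at 89.9 to 238 CPM in the TDP-43 cKO, 122 to 377 CPM in the NELF-B cKO and 470 to 693 CPM in the controls, with none of the 6 at 0. Smg5 was higher in control pachytene SC, at 71.6 ± 2.37 CPM, than in control Sertoli cells, at 43.0 ± 4.33 CPM, and the part of such RNA in its lower level was not tested. Synj2bp was at 65.4 to 73.8 CPM in control Sertoli cells and 62.8 to 69.6 CPM in those of the TDP-43 cKO, which overlapped.

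No gene of the 8 was called in Leydig or interstitial cells. The test called 0% of 13576 genes in TDP-43 cKO Leydig cells, where 2605 genes and none of the 8 had an unadjusted p under 0.05. In interstitial cells it called 0% of 11772 genes, with 2102 genes under that p, Spata13 among them. Sort1 was too low to be tested in interstitial cells. Tecpr1 in Leydig cells, its highest cell type, was at 69.3 to 96.4 CPM in the controls and 62.6 to 83.9 CPM in the TDP-43 cKO mice. DESeq2 was not run on these 2 cell types.

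**Figure D5:**
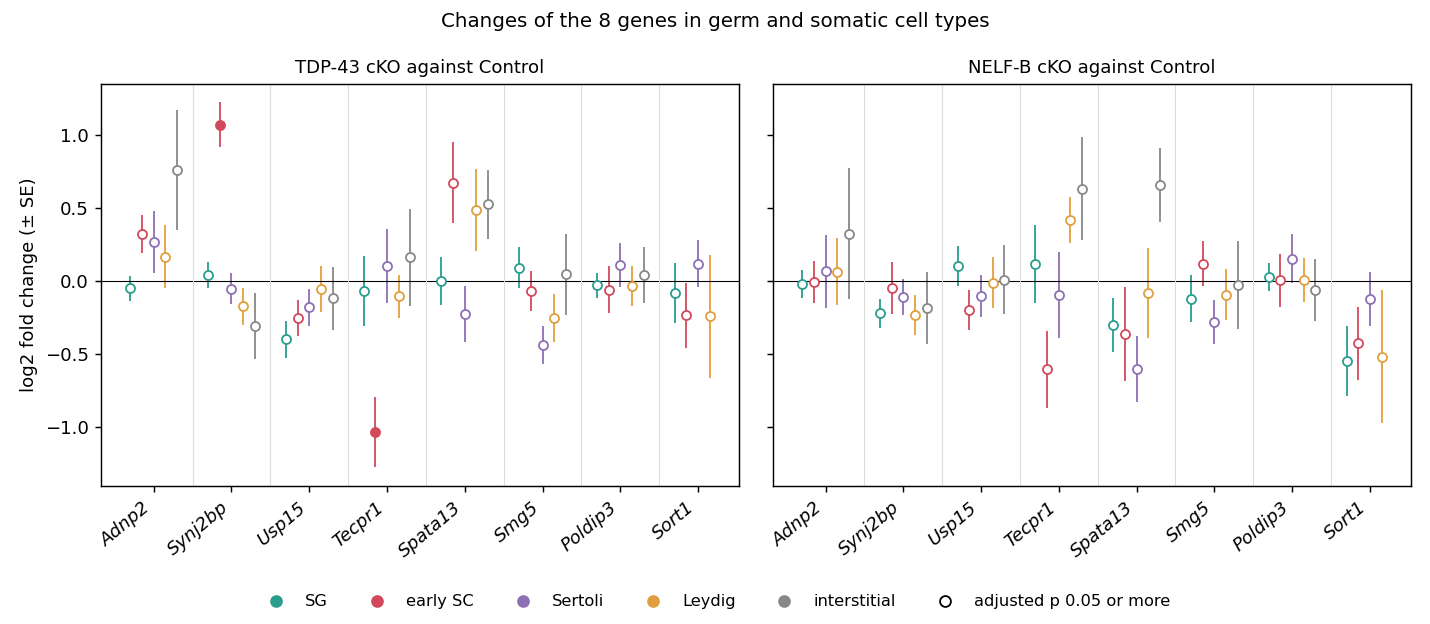
Log2 fold change of each gene with its SE in SG, early SC, Sertoli, Leydig and interstitial cells, for TDP-43 cKO (left) and NELF-B cKO (right) against Control; filled points passed an edgeR adjusted p of 0.05. The only filled points are Synj2bp at 1.07 and Tecpr1 at -1.04 in TDP-43 cKO early SC.

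Whether the TDP-43 cKO effect differed between germ and Sertoli cells was tested with an interaction term over 18 sums, with the mouse as a block. The germ cells here were the joint sums of SG and early SC, whose stage mix differed between genotypes. Early SC alone were not set against Sertoli cells. None of the 8 passed, where 6.63% of 19954 genes did, and 3 of the 8 had an unadjusted p under 0.05. The differences nearest the threshold were those of Usp15, at -0.71 ± 0.20 (edgeR adjusted p = 0.0515), and Tecpr1, at -0.98 ± 0.28 (adjusted p = 0.0556). That of Synj2bp was 0.20 ± 0.16 (adjusted p = 0.469). The median of all genes in this contrast was -0.26, so Usp15 and Tecpr1 lay further down than the typical gene. Of all genes, 1197 were called lower and 126 higher. The median was not subtracted from the values given here, and Synj2bp lay above it. In the separate fits, Synj2bp had log2 fold changes of 0.49 in the joint sums and -0.052 in Sertoli cells. Those of Usp15 were -0.55 and -0.18, those of Tecpr1 -0.54 and 0.10, and those of Smg5 0.013 and -0.44. In the NELF-B cKO the same difference called 0.00501% of all genes and none of the 8.

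In the NELF-B cKO, which removes a subunit of the negative elongation factor and does not target Tardbp, none of the 8 genes was called in the 6 cell sets tested. Tardbp itself had log2 fold changes of -0.51 ± 0.14 on the joint sums, -0.45 ± 0.14 in early SC and -0.0030 ± 0.10 in SG. Their edgeR adjusted p were 0.106, 0.0833 and 0.994. The shares of all genes called were 0.217% in SG and early SC together, 0.011% in SG, 6.01% in early SC and 0% in Sertoli, Leydig and interstitial cells. At an unadjusted p under 0.05, 1 member passed in each of these 6 comparisons. Of all genes tested, 20.4% did so in SG and early SC together, 11.8% in SG, 25.6% in early SC, 12.5% in Sertoli, 9.66% in Leydig and 4.22% in interstitial cells. In early SC, Synj2bp had a log2 fold change of -0.045 ± 0.18 (edgeR adjusted p = 0.894) and Tecpr1 of -0.61 ± 0.27 (adjusted p = 0.185). On the joint sums, Sort1 was at 14.3 and 20.7 CPM in the NELF-B cKO and 22.1 to 25.4 CPM in the controls, a log2 fold change of -0.46 ± 0.17 (edgeR adjusted p = 0.158). Without NELF-B cKO 2 it was -0.80 and passed (adjusted p = 0.0414), and without NELF-B cKO 1 it was -0.21 (adjusted p = 0.419). At clustering resolution 1.2, where the cell set differed, Synj2bp and Tecpr1 were called in the NELF-B cKO, at -0.45 and -0.70. The share of all genes called at that setting is not given here. The other members had log2 fold changes of -0.29 for Tecpr1, -0.27 for Usp15, -0.26 for Synj2bp, -0.11 for Spata13, -0.050 for Smg5, -0.013 for Adnp2 and 0.057 for Poldip3 on the joint sums.

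Both cKO share their controls, so they were also compared with each other on the joint sums. None of the 8 genes was called, with 0.0957% of 19853 genes called and 2 of the 8 at an unadjusted p under 0.05. Synj2bp was higher in the TDP-43 cKO by 0.75 ± 0.14 on the log2 scale (edgeR adjusted p = 0.0755) and Spata13 by 0.48 ± 0.18 (adjusted p = 0.217).

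Other genes reported as TDP-43 targets, and the pathways to which the members belong, were counted on the joint sums of the TDP-43 cKO, where 16.1% of all genes passed. Of 11 other reported targets, none rose and 2 fell, Mib1, a ubiquitin ligase of Notch ligands, by 0.45 ± 0.10 and Ift81, a subunit of the ciliary transport complex, by 0.58 ± 0.09 on the log2 scale. Their edgeR adjusted p were 0.0200 and 0.00915, and the median of the 11 was 0.16. In early SC alone, where 24.6% of all genes passed, 3 of the 11 rose and 3 fell, Ift81 again among the latter.

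Smg5 belongs to the 10 NMD factors counted, of which 1 rose and 2 fell on the joint sums, beside 16.1% of all genes called. Upf3b, a protein of the exon junction arm of NMD, rose by 0.59 ± 0.16 and its paralog Upf3a fell by 0.78 ± 0.14, while Smg9, a regulator of the kinase Smg1, fell by 0.81 ± 0.15 (edgeR adjusted p of 0.0366, 0.0120 and 0.0130). Upf3a was at 107 to 142 CPM in the controls and 63.3 to 73.2 CPM in the TDP-43 cKO mice. The NELF-B cKO mice, at 92.1 and 67.5 CPM, were below the controls as well. The log2 fold changes of Upf3a, Smg9 and Ift81 in the NELF-B cKO were -0.64, -0.62 and -0.47 (edgeR adjusted p of 0.0768, 0.0880 and 0.0680). The median of the 10 in the TDP-43 cKO was -0.16. In TDP-43 cKO Sertoli cells Upf3a, Smg9 and Ift81 were below all controls too, while Upf3b and Mib1 overlapped. The levels were 59.4 to 86.1 against 120 to 222 CPM for Upf3a and 18.4 to 27.8 against 48.0 to 69.7 CPM for Smg9. Ift81 was at 15.3 to 25.8 against 27.6 to 39.4 CPM. None of these genes was called there, and 39.9% of all genes did not overlap.

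Sort1 was counted with 6 other genes of the sortilin family and its ligands, of which none passed, and the median of the 7 was 0.22. Tecpr1 was counted with 9 other genes of autophagosome conjugation, of which 2 rose. These were Atg5, part of the conjugate that Tecpr1 binds, by 0.32 ± 0.09, and Map1lc3b, which is attached to the autophagosome membrane, by 0.52 ± 0.13 (edgeR adjusted p of 0.0397 and 0.0293), beside a median of -0.14 over the list. On the joint sums the NELF-B cKO mice were above all controls for both genes. Atg5 was at 84.4 and 96.4 CPM in them against 68.3 to 79.2 CPM, and Map1lc3b at 326 and 428 against 230 to 279 CPM. Map1lc3b was at 366 to 423 CPM in control SG and 112 to 152 CPM in control early SC, and in early SC the TDP-43 cKO mice, at 113 to 138 CPM, overlapped the controls. In SG the TDP-43 cKO mice, at 431 to 524 CPM, and the NELF-B cKO mice, at 474 and 572 CPM, lay above all controls. It was not called in TDP-43 cKO SG, where 22.2% of all genes did not overlap. The part of the larger SG share of the joint sums in these list calls was not tested. In early SC, where 24.6% of all genes were called, 1 of the 10 rose, again Atg5, and 4 fell, Tecpr1, Gabarap, Map1lc3a and Atg7.

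Paralogs and partners of the members moved in both directions on the joint sums. Usp4 fell by 0.68 ± 0.09 on the log2 scale and Usp11 rose by 0.70 ± 0.17, both being close relatives of Usp15 (edgeR adjusted p of 0.00801 and 0.0267). The NELF-B cKO mice lay outside the controls on the same sides. Usp4 was at 36.1 and 40.5 CPM in them against 44.4 to 50.1 CPM, and Usp11 at 18.2 and 17.2 against 9.98 to 14.6 CPM. Between NELF-B cKO and controls 28.7% of all genes did not overlap. Arhgef4, the paralog of Spata13, rose by 2.19 ± 0.38 (adjusted p = 0.0108; of its 2 identifiers, 1 had no UMI in these sums), from 2.58 to 3.25 CPM in the controls to 9.37 to 16.1 CPM in the TDP-43 cKO mice, and NELF-B cKO 1 was also high at 13.7 CPM. Adnp, Synj2, Pold2 and Rps6kb1, relatives or partners of Adnp2, Synj2bp and Poldip3, had log2 fold changes of 0.025, 0.31, 0.11 and 0.016 and did not pass. In the NELF-B cKO, no gene of any of these lists passed on the joint sums, where 0.217% of all genes passed. In NELF-B cKO early SC, where 6.01% of all genes passed, 2 of the 11 other targets rose. There 2 of the NMD factors fell, as did 1 gene of the sortilin list and 1 of the paralogs and partners. Of the autophagosome list, 1 gene rose and 1 fell.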

How the data were processed

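Libraries were made with 10x Genomics 3′ chemistry from whole testis cell suspensions of 9 mice. The submitters' processing notes name Cell Ranger 6.1.1 and 7.0.0, Seurat 4.2.0, DESeq2 1.36 and mm10. The authors' methods give the former Cell Ranger version for demultiplexing and the latter for mapping. They deposited raw UMI counts per barcode and gene. Cell Ranger 7.0.0 counts intronic reads unless told not to, and the setting is not given in the sources used here, so UMIs may include unspliced RNA. The 8 genes, the gene lists and the comparisons were chosen with earlier results of these data known.

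A barcode was used if more than 1000 genes had a UMI and the mitochondrial share stayed below 10%. Barcodes were clustered with scanpy 1.11.5 (Python 3.11.15; 3000 variable genes, 40 principal components, 20 neighbours, resolution 0.8), and clusters were named from at least 3 markers at 2 times their level elsewhere and a median of at least 2000 UMIs. Clusters below that depth stayed unnamed, among them 1 with 98.8% of its barcodes from 1 mouse. Cluster 18, with 780 barcodes, a median of 2093 UMIs and SG as its best score, met these rules but was led by haemoglobin genes. It stayed unnamed by a rule added after the clusters had been seen. Further limits applied to clusters mostly from 1 mouse, shallow clusters and clusters with markers of more than 1 lineage. A difference from the study's cell types may come from these rebuilt names. Scrublet called 0.208% of barcodes, too few to have worked as a doublet caller, and doublets were kept.

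UMIs were summed per mouse and cell type, and CPM were computed from these sums. Genes were tested with edgeR 4.0.16 (R 4.3.3; filterByExpr, TMM, glmQLFit, glmQLFTest) over all 9 mice with genotype as the only term, adjusted by Benjamini-Hochberg over all genes tested. A gene was called at an adjusted p under 0.05. The test was checked on simulated counts. P-values measure the spread between mice, and levels of genes with few UMIs have counting error besides. Alternatives were RLE size factors, DESeq2 1.42.0, no filter, other cell sets, resolution 1.2, a replicate block and leaving out each mouse. All 8 members were named, the targeted genes, the list genes called on the joint sums of the TDP-43 cKO (at most the 4 largest per list), each paralog or partner, and the 2 genes most alike per member, of which 1 is not reported here. The list genes named for early SC were chosen after their values were seen.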

Additional observations from a re-analysis of the deposited data

Results flagged for a closer look

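Of 48 sets of 4 control values checked, 4 held a mouse far from the other 3, where chance gives about 1 in 20. Poldip3 in SG and early SC was at 66.1 CPM in Control 4 and 77.7 to 79.9 CPM in the others. Smg5 in SG was at 47.5 CPM in Control 4 and 59.9 to 61.0 CPM in the others. Spata13 in SG was at 27.4 CPM in Control 4 and 19.2 to 20.4 CPM in the others. Usp15 in early SC was at 151 CPM in Control 1 and 187 to 190.4 CPM in the others, and with Control 1 in place its range reached the TDP-43 cKO mice.

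The change of Synj2bp in the TDP-43 cKO was larger in early SC than in SG by 1.08 ± 0.14 on the log2 scale, with an adjusted p of 0.00696 in edgeR.

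Barcodes with at most 100 UMIs, which no comparison used, held more RNA of 4 of the 8 genes in every TDP-43 cKO mouse than in every control. Sort1 was at 32.4 to 36.6 CPM against 20.5 to 29.99 CPM, Spata13 at 12.2 to 20.1 against 1.50 to 8.01 CPM, Poldip3 at 62.0 to 73.8 against 39.1 to 53.5 CPM and Adnp2 at 17.96 to 25.7 against 6.52 to 13.6 CPM. Of 18501 genes with a mean of at least 1 CPM in these barcodes, 36.6% were higher in every TDP-43 cKO mouse and 25.3% lower. Synj2bp was lower there, at 67.3 to 89.3 against 126 to 168 CPM. The difference was not tested.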

How the results depend on the processing

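In early SC of the TDP-43 cKO, 2 of the 8 genes were called, Synj2bp in all leave-one-out fits and Tecpr1 in 8 of them, so that leaving out 1 mouse gave 1 to 2 calls. Those fits called 2077 to 4614 of all genes. There was 1 call with no cell left out, 1 with the control cells with a Tardbp UMI left out too, 0 in cluster 7 alone and 0 in cluster 12 alone. The last 3 settings were chosen after seeing the data, as were the alternatives for Leydig and interstitial cells, for the comparison of the 2 cKO and for the difference from Sertoli cells. On the joint sums of the TDP-43 cKO, 2 calls became 0 to 3 when 1 mouse was left out, with 699 to 4900 of all genes called in those fits. There were 0 calls with control cells with a Tardbp UMI left out, where 1 of 18895 genes was called. At the study's thresholds there were 0 calls, where 0.861% of all genes were called. The joint sums of the NELF-B cKO gave 2 calls at resolution 1.2, Synj2bp and Tecpr1, where the cell set differed. Without NELF-B cKO 2, which left 1 NELF-B cKO mouse, the log2 fold change of Sort1 was -0.80. Leaving out 1 mouse gave 0 to 1 calls in Sertoli cells of the TDP-43 cKO, with 0 to 3787 of all genes called. For the difference from Sertoli cells it gave 0 to 2 calls, Usp15 and Tecpr1, with 2 to 3553 of all genes called. Counts between the 2 cKO also moved and are left out, since some of those fits held 1 NELF-B cKO mouse. DESeq2 called 1 of the 8 genes in Sertoli cells of the TDP-43 cKO, Smg5. Shares of all genes are not given for DESeq2, single clusters, resolution 1.2, no cell left out or, in early SC, control cells left out.

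Several log2 fold changes that had not passed changed sign. In the TDP-43 cKO, Smg5 turned to -0.0035 with RLE size factors, -0.0029 in DESeq2, -0.13 at resolution 1.2 and -0.0034 with control cells left out, and Sort1 to 0.077 with no cell left out, 0.059 at resolution 1.2 and 0.16 with control cells left out. In the NELF-B cKO, Adnp2 turned to 0.0079, 0.14 and 0.12 under the same settings as Sort1, Spata13 to 0.015 at resolution 1.2 and 0.32 with control cells left out, and Tecpr1 and Smg5 to 0.016 and 0.040 in the latter. Synj2bp in SG turned to -0.22 in cluster 9 alone, and Tecpr1 in NELF-B cKO early SC to 0.079 in cluster 12 alone. When 1 mouse was left out, log2 fold changes on the joint sums spanned -0.061 to 0.0099 for Adnp2 and -0.17 to 0.037 for Smg5 in the NELF-B cKO, and -0.027 to 0.053 for Poldip3 and -0.071 to 0.12 for Smg5 in the TDP-43 cKO. Synj2bp spanned -0.094 to 0.0014 in NELF-B cKO early SC and -0.053 to 0.070 in TDP-43 cKO SG. The causes were not tested.

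Same-numbered mice of different groups had correlations of their deviations from -0.376 to 0.363. Mice with different numbers were not correlated, so whether the numbers pair the mice cannot be told. With the replicate number as a block, none of the 8 genes was called on the joint sums of the TDP-43 cKO, 0 beside 2, with 1 of 19853 genes called, and Smg5 turned to -0.071, Poldip3 to -0.026 and, in the NELF-B cKO, Poldip3 to -0.0095. On the joint sums of the NELF-B cKO the block changed no call. Of the other values recomputed, 368 log2 fold changes kept their direction and side of the threshold, while 21 no longer passed and 10 passed only under the alternative. A further 166 counts of calls stayed near the main count, which does not mean that the same genes were called. On the joint sums of the TDP-43 cKO at the higher clustering resolution, Synj2bp was no longer called, while Usp15, Tecpr1 and Spata13 were. Tecpr1 and Spata13 are limited by their counts in early SC, at 19 to 147 and 25 to 74 UMIs per mouse.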
